A study of Mus musculus with 6 samples.

Results

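The genes followed here are Txnip, the 4 alpha-arrestins related to it (Arrdc1, Arrdc2, Arrdc3 and Arrdc4) and the glucose-sensing pair Mlx and Mlxip, the latter encoding MondoA. They were picked by name, 7 of the 41819 genes in the deposited table, and all 7 passed the filter on low counts (11509 genes tested). Txnip was included because the study placed it among its differentially expressed genes on these same cultures, so its difference between the groups is given as a description with no test. The other 6 were added as its relatives and regulators, with earlier results of these data known. RNA came from a single puromycin-selected clone of mouse 3T3 embryonic fibroblasts, a line the labels class as malignant, transduced with a lentiviral TetOne cassette that encodes human PARG (hPARG) and, as a separate product, nuclear mClover3. PARG is the enzyme that removes poly(ADP-ribose) from proteins. The cassette was present in both groups, of which 3 dishes received 500 ng/ml doxycycline for 72 h (hPARG) and 3 received none (control). The labels call these cultures wells and the methods call them dishes, and nothing states that they came from separate cell stocks, so p-values measure only the spread between these cultures. Doxycycline, hPARG and any mClover3 made with it always came together and cannot be told apart here. The construct name in the RNA sequencing methods of the study leaves out mClover3.

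Alpha-arrestins are adaptor proteins with an arrestin fold and PPxY motifs that bring ubiquitin ligases of the NEDD4 family to membrane proteins. Txnip binds and inhibits thioredoxin and, like Arrdc4, drives glucose transporters such as Slc2a1 (GLUT1) off the cell surface. MondoA and its partner Mlx form a transcription factor that responds to glucose 6-phosphate, and Txnip and Arrdc4 are its best known targets, which makes this pair a common readout of glucose sensing in fibroblasts.

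MondoA and Mlx recognise carbohydrate response elements, pairs of E-box-like hexamers a fixed distance apart, so the upstream sequences of the 2 glucose-responsive genes are shown to let their motifs be compared. These are the 250 bases before the RefSeq start site of each gene (GRCm38.p6), 5′ to 3′ on the gene's strand, at chr3:96557707-96557956 (plus strand) and chr7:68749239-68749488 (minus strand). Capitals mark a hexamer pair (CACGNG, any 5 bases, CACGNG) in Txnip and the canonical E-box (CACGTG) in Arrdc4.
Txnip: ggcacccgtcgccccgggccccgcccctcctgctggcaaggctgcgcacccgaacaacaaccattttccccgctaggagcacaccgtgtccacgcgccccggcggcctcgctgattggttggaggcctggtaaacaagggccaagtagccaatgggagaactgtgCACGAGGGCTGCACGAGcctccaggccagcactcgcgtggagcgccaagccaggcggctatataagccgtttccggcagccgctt
Arrdc4: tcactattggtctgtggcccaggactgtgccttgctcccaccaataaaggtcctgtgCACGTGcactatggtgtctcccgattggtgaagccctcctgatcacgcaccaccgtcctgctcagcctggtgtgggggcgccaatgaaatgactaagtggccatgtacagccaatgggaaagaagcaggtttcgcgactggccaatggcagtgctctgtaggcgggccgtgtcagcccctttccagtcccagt
The Txnip pair lay from -85 to -69 relative to the start site and read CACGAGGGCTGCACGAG. Searched on both strands, the pair was found in 16 of 32817 RefSeq promoter windows (0.0488%), each covering 250 bases before and 50 after a start. These belonged to 15 genes, of which 9 were tested. Apart from Txnip, Irak1bp1 was lower in hPARG without overlap (log2 fold change -0.39), beside 6.00% of all tested genes. Man2b2 was higher without overlap (0.26), beside 3.61% of all tested genes, and the other 6 overlapped between the groups. The Arrdc4 window held no such pair and had its E-box from -193 to -188, a hexamer present in 7.15% of windows and also in the Mlx window from -40 to -35. The Arrdc4 window also had 6 CCAAT boxes (CCAAT on either strand, in 37.4% of windows) against 2 in the Txnip window. A FOXO-type site (GTAAACA, in 3.65% of windows) was found in the Txnip window from -121 to -115 and in no other window of the 7 genes. The TATA box letters TATAAA (13.6% of windows) were found in no window of the 7 genes. Only these exact letters were searched, and the Txnip sequence printed above holds the variant TATATAA. Windows were found for all 7 genes, and a match is a description of the letters in it.

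Txnip had the highest level of the 7 genes in every dish, far above Mlx in control and by little in hPARG. Levels of different genes are compared as TPM, counts per gene length scaled to the same sum in every dish, as the authors' software gave them. Txnip stood at 167 ± 65.2 TPM (SD, n = 3) in control and 71.1 ± 8.49 TPM (SD, n = 3) in hPARG. Mlx followed, with 56.3 ± 3.47 TPM in control and 56.7 ± 4.73 TPM in hPARG (SD, n = 3 each). The closest values were 61.7 TPM for Txnip and 61.2 TPM for Mlx in hPARG dish 3. The remaining 5 genes lay between 2.82 and 11.4 TPM. In control, Arrdc1 (9.86 to 10.7 TPM) stood above Arrdc3 (9.27 to 9.63 TPM), and in hPARG the order was the opposite, with Arrdc3 at 9.79 to 11.4 TPM and Arrdc1 at 7.49 to 9.68 TPM. Counting error alone gives Arrdc1 a coefficient of variation of 7.30% in control and 8.01% in hPARG, so small gaps between these genes cannot be read. Mlxip (4.97 to 9.64 TPM), Arrdc4 (4.06 to 7.52 TPM) and Arrdc2 (4.11 to 4.83 TPM) followed in control, where Arrdc4 overlapped with both and Mlxip and Arrdc2 did not overlap. In hPARG, Arrdc4 was the lowest of the 7 at 2.82 to 3.54 TPM, with no overlap with Arrdc2 at 3.82 to 4.65 TPM. Txnip made up 79.4% to 87.8% of the summed TPM of the 5 alpha-arrestins in the control dishes and 71.9% to 73.8% in the hPARG dishes.

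**Figure D1:**
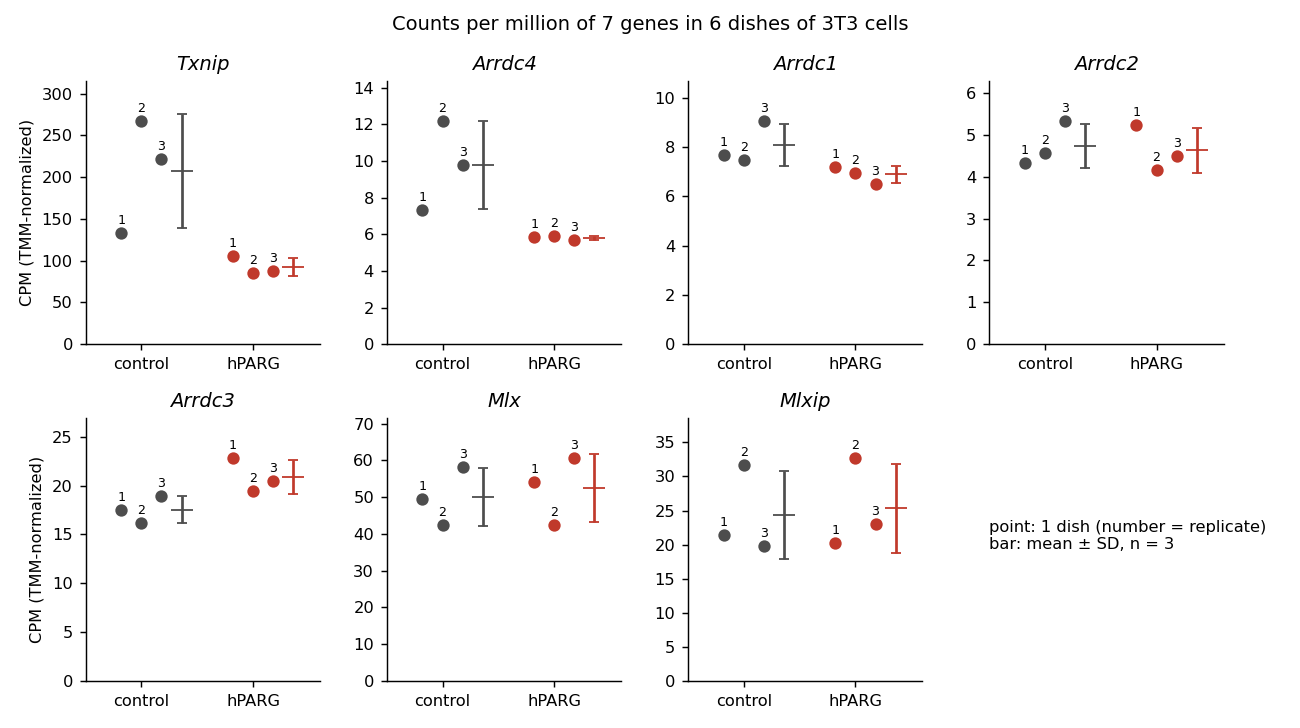
Each panel plots 1 gene, with CPM (counts scaled to the TMM-adjusted library size) on the vertical axis from 0, the 6 dishes as numbered points (control in grey, hPARG in red) and the mean ± SD of each group beside them. Txnip, Arrdc4 and Arrdc1 were lower and Arrdc3 higher in all hPARG dishes, whereas Arrdc2, Mlx and Mlxip overlapped.

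Txnip (ENSMUSG00000038393, chromosome 3, 96557957 to 96561883 of GRCm38) had 3422, 6205 and 4703 counts in control dishes 1 to 3 and 2300, 2081 and 1898 counts in hPARG dishes 1 to 3. After TMM normalization these were 134, 267 and 222 CPM in control and 105, 85.8 and 87.1 CPM in hPARG. The groups did not overlap, but control dish 1 lay much nearer to the hPARG dishes than to the other control dishes. The log2 fold change was -1.16 (standard error 0.238), a level 2.24-fold lower in hPARG, and this is the contrast that chose the gene. With each dish left out in turn it lay between -1.39 and -0.94, and without both dishes numbered 2 it was -0.88. In the annotation, 606 exon bases of Txnip (19.4%) are shared with the antisense gene Gm15441, which has 0 counts in every dish. All 18241 genes of 8 non-coding classes, antisense genes among them, have 0 counts in the table, so this 0 says nothing of Gm15441, and any of its reads that were given to Txnip cannot be separated.

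Arrdc4, the relative that shares with Txnip both MondoA control and an action on glucose transporters, was lower in every hPARG dish as well, without passing the test. Arrdc4 (ENSMUSG00000042659, chromosome 7, 68736995 to 68749241) was covered by 188, 283 and 208 counts in control and by 128, 143 and 124 counts in hPARG. Its levels were 7.34, 12.2 and 9.80 CPM in control (9.77 ± 2.42, SD, n = 3) against 5.87, 5.89 and 5.69 CPM in hPARG (5.82 ± 0.112, SD, n = 3). Control dish 1 was again the nearest to the hPARG group, and control dish 2 was again the highest. The log2 fold change was -0.75 (standard error 0.192), a level 1.68-fold lower, with an unadjusted 95% interval from -1.19 to -0.30. In edgeR's quasi-likelihood test its unadjusted p was 0.00487, which ranked the gene 76 among all tested, and the adjusted p (Benjamini-Hochberg over 11509 genes) was 0.713. Arrdc4 was chosen with earlier results of these data known, so these p-values and the interval do not stand for an unselected gene. The threshold of 0.05 for the adjusted p was passed by 10 genes (0.0869% of those tested, 0.0782% lower and 0.00869% higher in hPARG), and a log2 fold change at or below that of Arrdc4 was found in 75 genes (0.652%). DESeq2 gave Arrdc4 an adjusted p of 0.134 and edgeR's likelihood ratio test 0.0693, and over all 17 alternatives the adjusted p ran from 0.0217 to 0.9999, under the threshold in 2 of them. Across the fits that omitted a single dish, its log2 fold change ran from -0.91 to -0.55, the smallest without control dish 2. In bulk RNA, fewer cells with a transcript and less transcript per cell cannot be told apart.

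Whether Arrdc4 follows Txnip was also examined within the groups, which does not use the contrast that chose Txnip. In control, both genes were lowest in dish 1 and highest in dish 2. The log2 CPM of Txnip deviated from the control mean by -0.58, 0.42 and 0.15 in dishes 1 to 3, and that of Arrdc4 by -0.38, 0.34 and 0.03. In hPARG, Txnip deviated by 0.19, -0.11 and -0.08 and Arrdc4 by 0.01, 0.02 and -0.03. The hPARG dishes of Arrdc4 varied by 1.92% (coefficient of variation), less than the 8.71% that counting error alone gives at these counts, so no order can be read among them. Over the 6 deviations Pearson's r was 0.942 and Spearman's rho 0.714, given as a description because the points share the fitted group means. Without control dishes 1 and 2, the farthest from the median, r was 0.535, so the likeness rests mainly on these dishes. Between the groups, where the contrast that chose Txnip enters and favours a large difference for it, the ratio is given as values only. Txnip exceeded Arrdc4 by 26.0, 31.3 and 32.3 times in TPM in the control dishes and by 25.7, 20.8 and 21.9 times in the hPARG dishes, and control dish 1 and hPARG dish 1 nearly met.

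**Figure D2:**
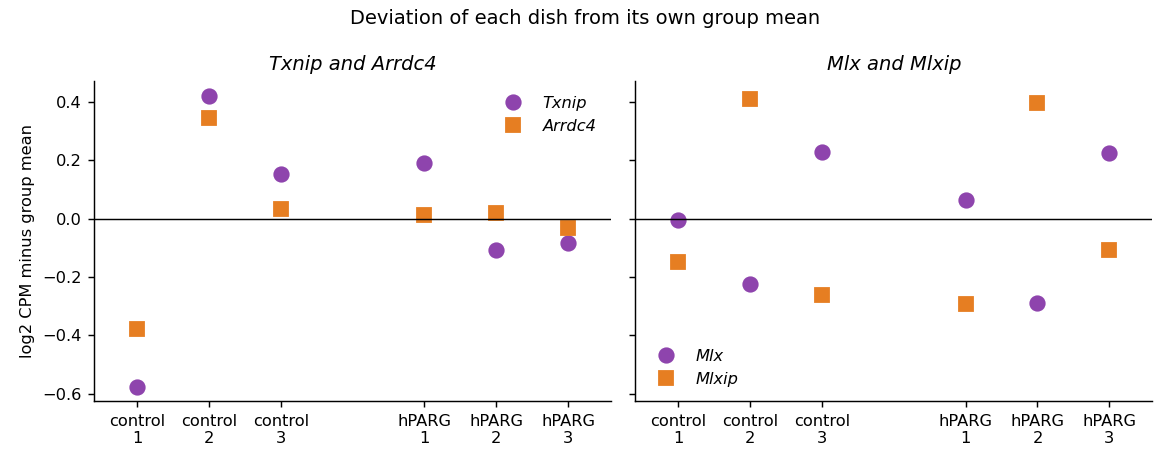
The vertical axis is log2 CPM minus the mean of the dish's own group, with the 6 dishes along the horizontal axis, for Txnip and Arrdc4 (left) and for Mlx and Mlxip (right). Txnip and Arrdc4 were both lowest in control dish 1 and highest in control dish 2, while Mlx was low and Mlxip high in the dishes numbered 2 of both groups.

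Among the other alpha-arrestins, none passed the test and the directions were mixed. Arrdc3, which guides the trafficking of beta-adrenergic receptors and integrins, had 17.5, 16.2 and 18.9 CPM in control and 22.8, 19.5 and 20.5 CPM in hPARG. All hPARG dishes stood above all control dishes, opposite to Txnip and Arrdc4. Its log2 fold change was 0.26 (standard error 0.114, interval -0.01 to 0.52, edgeR adjusted p = 0.999). Arrdc1, which recruits the budding machinery for vesicles shed at the plasma membrane, had 7.69, 7.48 and 9.05 CPM in control and 7.20, 6.96 and 6.51 CPM in hPARG. The groups did not overlap, but the nearest dishes, control 2 and hPARG 1, were close, and control dish 3 was the highest. Arrdc1 varied by 10.5% in control and 5.04% in hPARG (coefficient of variation). Counting error alone gives Arrdc1 7.30% and 8.01%, so little can be read from its order of dishes. Its log2 fold change was -0.23 (standard error 0.132, interval -0.53 to 0.08, edgeR adjusted p = 0.999). Arrdc2 had 4.33, 4.56 and 5.33 CPM in control and 5.23, 4.16 and 4.50 CPM in hPARG, with full overlap. Its log2 fold change was -0.03 (standard error 0.164, interval -0.41 to 0.35), so a change of the size seen for Arrdc4 lay outside the interval.

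The glucose sensor itself showed no shift in transcript level beyond the spread between dishes. Mlx (chromosome 11, 101087277 to 101092207) had 49.5, 42.4 and 58.1 CPM in control and 54.2, 42.4 and 60.7 CPM in hPARG, a log2 fold change of 0.07 (standard error 0.167, interval -0.32 to 0.46, edgeR adjusted p = 0.999). Mlxip (chromosome 5, 123394798 to 123457932) had 21.5, 31.7 and 19.8 CPM in control and 20.3, 32.7 and 23.0 CPM in hPARG, a log2 fold change of 0.06 (standard error 0.232, interval -0.48 to 0.60, edgeR adjusted p = 0.999). In both groups dish 2 was the lowest for Mlx and the highest for Mlxip. The ratio of Mlx to Mlxip in TPM was therefore 5.52 in control dish 2 and 5.35 in hPARG dish 2, against 9.52 to 12.1 in the other 4 dishes. Mlx has the shortest exon length of the 7 genes (1999 bases) and Mlxip the longest (8326 bases). Across genes, the deviation of a dish from its group mean went with exon length at Spearman's rho of 0.53 and 0.521 in control and hPARG dish 2, and at -0.513 to -0.252 in the other dishes. With a spline of exon length fitted per dish, the standard error fell to 0.104 for Mlx and 0.159 for Mlxip, and the log2 fold changes were 0.09 and 0.03. Psmc3ip overlaps 385 exon bases of Mlx (19.3%) on the opposite strand and had 383 to 636 counts per dish. How reads in this overlap were divided is not given in the sources used here.

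**Figure D3:**
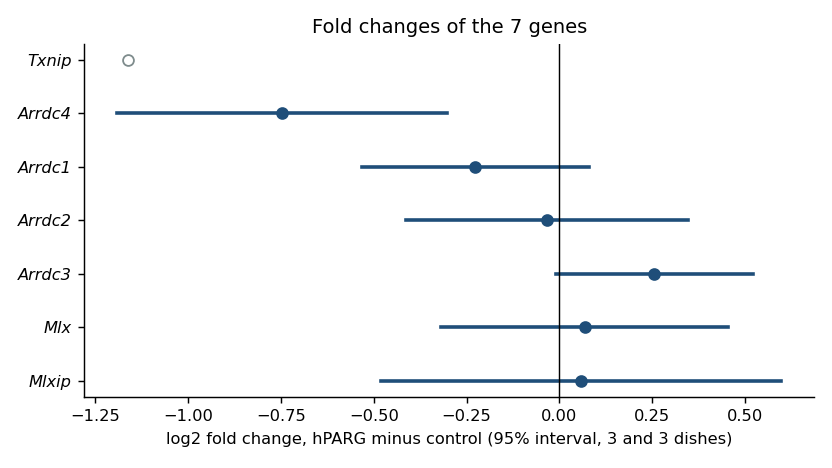
Points are log2 fold changes of hPARG over control for the 7 genes, and lines are unadjusted 95% intervals from edgeR (3 and 3 dishes). Txnip is an open point without an interval because it was chosen on this contrast, and Arrdc4 at -0.75 is the only other gene whose interval does not include 0. The 7 genes were chosen with earlier results of these data known.

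With all dishes and no further term in the fit, 0 of the 6 genes other than Txnip passed an adjusted p of 0.05 in edgeR's quasi-likelihood test, in DESeq2 or in the likelihood ratio test. In the quasi-likelihood test 0.0869% of all tested genes passed. Of the 6, 1 gene, Arrdc4, had an unadjusted p under 0.05 in each (3.95% of all tested genes had one in the quasi-likelihood test, 2.54% lower and 1.42% higher). Without overlap between dishes, 2 of the 6 were lower, beside 6.00% of all tested genes, and 1 was higher, beside 3.61% (9.62% in either direction).

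Genes around Txnip and MondoA were taken from lists written by hand. None of them passed the adjusted threshold in edgeR, beside 0.0869% of all tested genes. At that share, finding none in lists of this size says little of them. Among 20 other genes known to respond to MondoA or its liver counterpart ChREBP with Mlx, 15 were tested, with a median log2 fold change of 0.06 beside 0.00385 over all genes. Only Klf10, a zinc finger factor induced by glucose, separated the groups, 1 of 15 beside 9.62% of all tested genes (6.00% lower). It had 806, 950 and 699 counts in control and 607, 616 and 603 counts in hPARG, which is -0.38 on the log2 scale (standard error 0.126, edgeR adjusted p = 0.982). The hexokinase gene Hk2, the glycolytic regulator Pfkfb3 and the fatty acid synthase gene Fasn had log2 fold changes of 0.26, -0.31 and 0.01 with standard errors of 0.206, 0.323 and 0.276, and all overlapped. Mlxipl, which encodes ChREBP, had 0 counts in all dishes, which allows up to 3 counts in each.

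Of 16 genes for glucose entry and the glucose 6-phosphate pool, 9 were tested, with log2 fold changes from -0.01 to 0.26. Of the 9, 0 separated the groups, beside 9.62% of all tested genes. Slc2a1, the transporter that Txnip removes from the surface, had 2078, 1624 and 1572 counts in control and 1617, 1920 and 1680 counts in hPARG (log2 fold change 0.03, standard error 0.098). Hk1, the constitutive hexokinase, stood at 0.04 (standard error 0.18). The untested transporters and hexokinases had at most 12 counts in a dish.

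In the network of factors that share Max or Mlx as partners, 8 of 11 genes were tested. Without overlap, 1 was higher and 1 lower, beside 3.61% and 6.00% of all tested genes. Mxd4, a repressor that pairs with Max, had 661, 553 and 480 counts in control and 727, 759 and 654 in hPARG, which overlap before normalization. After it, all hPARG dishes were higher (24.1 ± 1.61 CPM in control and 31.5 ± 1.68 CPM in hPARG, SD, n = 3 each), a difference of 0.39 on the log2 scale (standard error 0.103, edgeR adjusted p = 0.717). Max itself was lower without overlap at -0.15 (standard error 0.0940). Myc, whose protein pairs with Max at the same E-boxes, stood at -0.34 (standard error 0.13, edgeR adjusted p = 0.999) and overlapped.

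The partners of the Txnip protein were read from the same fit. The 7 tested genes of the thioredoxin system lay between -0.15 and 0.01 on the log2 scale, with Txn1, the thioredoxin that Txnip binds, at 0.01 (standard error 0.163). The 11 tested ligases and sorting partners of alpha-arrestins lay between -0.15 and 0.06, among them Itch, a ligase for Txnip, at -0.07 (standard error 0.159). No gene of these lists separated the groups, beside 9.62% of all tested genes. With library size alone as scaling, 1 thioredoxin system gene, the mitochondrial reductase Txnrd2 (-0.11 in the TMM fit, where it overlapped), was lower without overlap. AMP-activated kinase marks Txnip for degradation. Of its 8 tested subunits and upstream kinases, 1 was lower without overlap, beside 6.00% of all tested genes. This was Prkab1, with 1016, 1037 and 935 counts in control and 807, 795 and 773 in hPARG (log2 fold change -0.29, standard error 0.102, edgeR adjusted p = 0.999). Among 6 tested genes with an arrestin fold outside the 7, 1 was higher without overlap, beside 3.61% of all tested genes. This was Vps26b of the retromer at 0.13 (standard error 0.0928), and it overlapped with library size alone as scaling. Arrdc5 had 0 counts in all dishes.

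**Figure D4:**
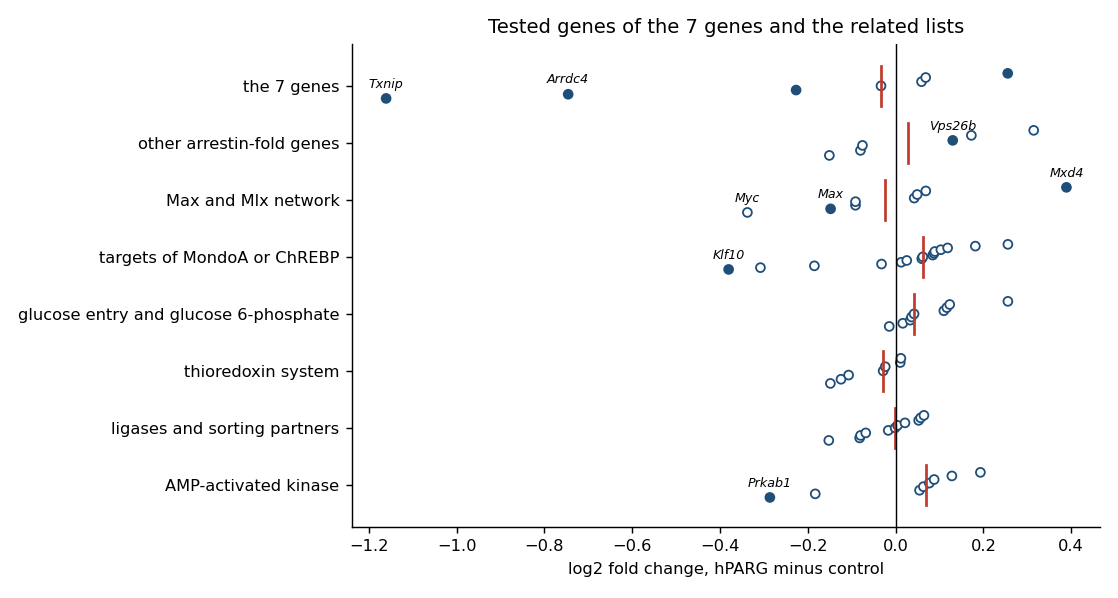
Each point is a tested gene placed by its log2 fold change of hPARG over control, in rows for the 7 genes and each related list (Hk2 is in 2 of them). Filled points are genes whose hPARG and control dishes did not overlap, and red bars are list medians, which lie between -0.03 and 0.07.

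The genes whose log2 CPM followed Txnip most closely over the 6 dishes, among 10840 tested genes with at least 1 CPM on average, were Dhx58 (Pearson's r = 0.993), Igtp (0.992), Gon7 (0.987), Arrdc4 (0.985) and Eif3j2 (0.984). Dhx58 encodes the RNA sensor LGP2 and Igtp an interferon-inducible GTPase, and their log2 fold changes were -0.62 and -0.32. This ranking includes the group difference on which Txnip was chosen, which places genes lower in hPARG near the top. For Arrdc4 the closest were Atad3a (0.999), Eif3j2 (0.998), Etf1 (0.993), Gon7 (0.992) and Napb (0.992), with Txnip in place 8. After subtraction of the group means, Arrdc4 was in place 26 of 10840 for Txnip (0.240% of the ranking), the first 5 being Senp2, Cyb561a3, Slc43a2, Dhx58 and Igtp with r from 0.979 to 0.990. For Arrdc4 the first 5 were Lins1, Kctd11, Atad3a, Jun and Eif3j2, with r from 0.994 to 0.998. Txnip was in place 58 for Arrdc4 on this measure (0.535% of the ranking). Arrdc1, Arrdc2, Arrdc3, Mlx and Mlxip had r between -0.09 and 0.53 with Txnip on the same measure. These are rankings over 6 points that share libraries, and they carry no test.

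Totals of 21619908 to 25263818 counts were assigned to genes per dish, so that 1 count is a small part of any level above and intervals cover counting error and dish spread only. All 9 fibroblast markers were detected (summed 8001 to 8534 TPM in control and 8579 to 8833 TPM in hPARG), and none was called, beside 0.0869% of all tested genes. Of the 9, 3 (Col1a1, Col3a1 and Thy1) were higher without overlap, beside 3.61% of all tested genes. Pdgfra alone was lower without overlap, beside 6.00% of all tested genes. The part of these markers in the results above was not tested. Markers of leukocytes, epithelium and endothelium summed to at most 1.91, 1.05 and 0.592 TPM in a dish, with Adgre1 and Cd3e at 0 counts throughout.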

How the data were processed

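Poly(A) RNA of 6 dishes of 3T3 cells was sequenced in pairs on the NovaSeq platform. The authors trimmed the reads and mapped them to GRCm38 (Ensembl release 96) in CLC Genomics Workbench, and use of strand in counting is not given in the sources used here. The authors deposited unnormalized counts per gene and TPM values, and both were used. The authors' own fold changes and p-values, CPM and RPKM columns were not used. Gene models were GENCODE M21, which held all 41819 gene identifiers. Genes were filtered with filterByExpr (minimum count 10), normalized by TMM and tested by the quasi-likelihood method (glmQLFit, then glmQLFTest; edgeR 4.0.16 under R 4.3.3), all 6 dishes in the fit, with no block because the methods of the study name no pairing. Benjamini-Hochberg adjustment ran over all tested genes. Standard errors are the absolute log2 fold change over the square root of F, and 95% intervals use the t quantile of the fit. Log2 CPM for deviations and likeness used a prior count of 2. Alternatives were DESeq2 1.42.0, RLE or library size scaling, the likelihood ratio test, other filters, the replicate block, an exon length spline (4 degrees of freedom per dish), each dish left out, and dishes numbered 2 left out. The procedure was tested on simulated counts with 4-fold changes. Their common coefficient of variation was that of the block fit, 0.0615, against 0.148 in the fit used here. This test therefore does not cover smaller changes, such as that of Arrdc4, at the spread seen between these dishes. Named genes were the 7 members, up to 2 genes per list with the largest change among those without overlap (mean CPM at least 1), the 5 genes most like Txnip and Arrdc4, and overlapping genes. The genes Hk1, Hk2, Pfkfb3, Fasn, Slc2a1, Myc, Txn1, Itch, Txnrd2, Irak1bp1 and Man2b2 were named after their values were seen. Members and lists were chosen with earlier results of these data known. With 3 dishes against 3 an exact permutation test cannot give a p under 0.1, so none is reported.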

Additional observations from a re-analysis of the deposited data

How the results depend on the processing

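The number of genes passing an adjusted p of 0.05 moved from 10 (9 lower, 1 higher) to 16 with no filter on low counts, 25 with the exon length spline, 40 without both dishes numbered 2 (28 lower), 52 with DESeq2 (39 lower) and 65 with the likelihood ratio test (48 lower). With each dish left out in turn it lay between 3 and 13, with 3 without hPARG dish 1 and 5 without hPARG dish 3. Same-numbered dishes correlated in their deviations from group means at 0.0963, 0.61 and 0.168 for numbers 1, 2 and 3, control dishes 1 and 3 each correlated better with another hPARG dish, and no source says that a number marks a shared stock or day. With the replicate block 330 genes passed (179 lower), and 276 passed with the block and the exon length spline together (165 lower). Of the 6 members tested, Arrdc4 passed with the block (log2 fold change -0.73, edgeR adjusted p = 0.0217) and with the block and the spline (-0.72, edgeR adjusted p = 0.038), and in none of the other alternatives, where the adjusted p lay between 0.0693 and 0.9999. For Arrdc2 the log2 fold change turned to 0.018 without both dishes numbered 2. With each dish left out in turn, values crossing 0 ranged from -0.13 to 0.056 for Arrdc2, from -0.049 to 0.20 for Mlx and from -0.17 to 0.30 for Mlxip. The causes were not tested. The direction for Txnip, Arrdc4, Arrdc1 and Arrdc3 was the same in all 17 alternatives. All of these reuse the same 6 dishes. The groups did not overlap for these genes, so leaving dishes out could hardly turn the direction. Summing Txnip with its overlapping gene changed nothing, since that gene has 0 counts. Depth limits Arrdc1, Arrdc2 and Arrdc4 most, with 98 to 283 counts per dish.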
